A study of Homo sapiens with 12 samples.

Results

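The 8q24 segment around MYC and PVT1 was taken as all ATAC-seq peaks on chromosome 8 that start and end between 126 and 130 Mb (GRCh38). Peaks of 12 libraries that overlapped by at least 1 bp were merged into regions, which gave 3413 regions in the window from 7148 peaks. All libraries together held 2361798 regions from 4226167 peaks. The window was selected on a measured value, the raised local background of KYSE510 peaks there. That background level is therefore described below and not tested, and only its change with silencing is.

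ATAC-seq marks open chromatin by inserting sequencing adapters into accessible DNA with a transposase. KYSE150 and KYSE510 are established human oesophageal squamous carcinoma cell lines, grown in RPMI-1640 medium with serum. Each line gave 3 control libraries and 3 libraries from HCP5-silenced cells, HCP5 being a long non-coding RNA. The title of the series ties HCP5 to transcriptional regulation of c-Myc, the product of MYC. The labels used here give neither the way HCP5 was silenced nor the kind of control, and HCP5 RNA was not measured in these tables. Nothing in the labels says that the libraries of a group came from separate cultures, so p-values cover only the spread between these libraries.

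MYC encodes a transcription factor that drives growth and cell division, and it is often gained in human cancers. PVT1 is a long non-coding RNA gene beside it. In the annotation used here the microRNA genes MIR1204 to MIR1207 lie within PVT1, and MIR1208 lies beyond its upper end. POU5F1B is a retrocopy of the stem cell factor gene POU5F1. The surrounding gene desert holds further long non-coding RNA genes, among them CCAT1, CCAT2, CASC8 and CASC11, and distant elements that contact the MYC promoter in several epithelial cancers.

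The libraries differed in scale between the lines. KYSE150 libraries held 546453 to 629921 peaks, and KYSE510 libraries 115761 to 135841. In the window the KYSE150 control libraries had 893, 860 and 819 peaks and the silenced ones 797, 947 and 797. The KYSE510 control libraries had 338, 348 and 313 peaks and the silenced ones 328, 369 and 339. Of the KYSE150 peaks in the window, 75.1 to 80.8% had a height of 1, and no KYSE510 peak in the window did. A height is the authors' whole-number signal at the top of a peak and is not normalised between libraries. The depth of sequencing is unknown from the tables, so no counting interval is given. Peaks of height 5 or more lay within 1 kb of an end of 5 to 6 of 10 squamous epithelial marker genes in the KYSE150 libraries and of 7 of 10 in the KYSE510 libraries. The same count was 0 to 1 of 4 leukocyte, 0 to 2 of 4 fibroblast and 0 of 3 endothelial marker genes in KYSE150. In KYSE510 it was 1 of 4, 1 of 4 and 0 to 1 of 3. The leukocyte gene was CD14 and the fibroblast gene COL1A1 in all 6 KYSE510 libraries, while PTPRC, CD3E, PECAM1 and DCN had no such peak in any library. Of the squamous epithelial genes, TP63 and KRT14 also had none in any library. SOX2 and KRT6A had none in KYSE150, and PKP1 had none in KYSE510.

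Most members were weak and seen once. Of the 3413 regions, 2246 (65.8%) were called in 1 library and 2491 (73.0%) never rose above a height of 1. A further split by line gave 2725 regions called only in KYSE150, 209 only in KYSE510 and 479 in both. All 6 KYSE150 libraries shared 93 regions, all 6 KYSE510 libraries shared 179, and all 12 libraries shared 71. Heights of 10 or more were reached by 282 regions, and 226 of these lay in the raised stretch described next.

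For each peak the local background was worked out as (height + 1) / fold enrichment - 1. It was then divided by the background value that occurs most often in the same library, which 62.3 to 73.8% of KYSE150 peaks and 20.2 to 23% of KYSE510 peaks had. No peak of the window lay below that value beyond rounding, so a relative background of 1 is called the floor. Over the peaks of KYSE510 a single stretch of the window stood well above that floor. Its left edge lay at 8:127382802 and its right edge at 8:128995019 (medians over 6 libraries), a length of 1.61 Mb (1.60 to 1.62). The left edge fell at 127378800, 127381439 and 127396427 in the control libraries and at 127378888, 127384166 and 127396434 in the silenced ones. These positions span 17.6 kb (SD 8.30 kb, n = 6). The right edge fell at 128995148, 128994920 and 128996494 in the control libraries and at 128994458, 128989359 and 128995118 in the silenced ones, a span of 7.14 kb (SD 2.49 kb, n = 6). The edges of control and silenced libraries overlapped on both sides.

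The right edge was a single step. The last peak inside had a relative background of 6.35 to 18.3 over the 6 libraries, and the next peak outside, between 129005134 and 129005495 in every library, had 1.10 to 1.48. The left edge was less sharp. Before it, a pair of peaks about 88 kb away had a relative background of 7.91 to 9.80 in all 6 libraries, as high as the first peaks inside, and a peak about 129 kb away had 3.23 to 4.95. In 4 libraries the last peak outside had a relative background of 1 to 1.61 and the first inside, at 8:127391255-127391946, one of 6.26 to 9.90. In control 3 and silenced 3 the search placed that same peak outside, with 5.24 and 5.55. Their first peak inside then was the tall one over CCAT2, with 48 and 58.4. The lowest relative background inside the stretch was 1.66, 3.32 and 1.23 in the control libraries and 2.89, 3.33 and 3.05 in the silenced ones. Thus 1 peak of control 1 and 1 of control 3 fell under 2, and none of the other 4 libraries.

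**Figure D1:**
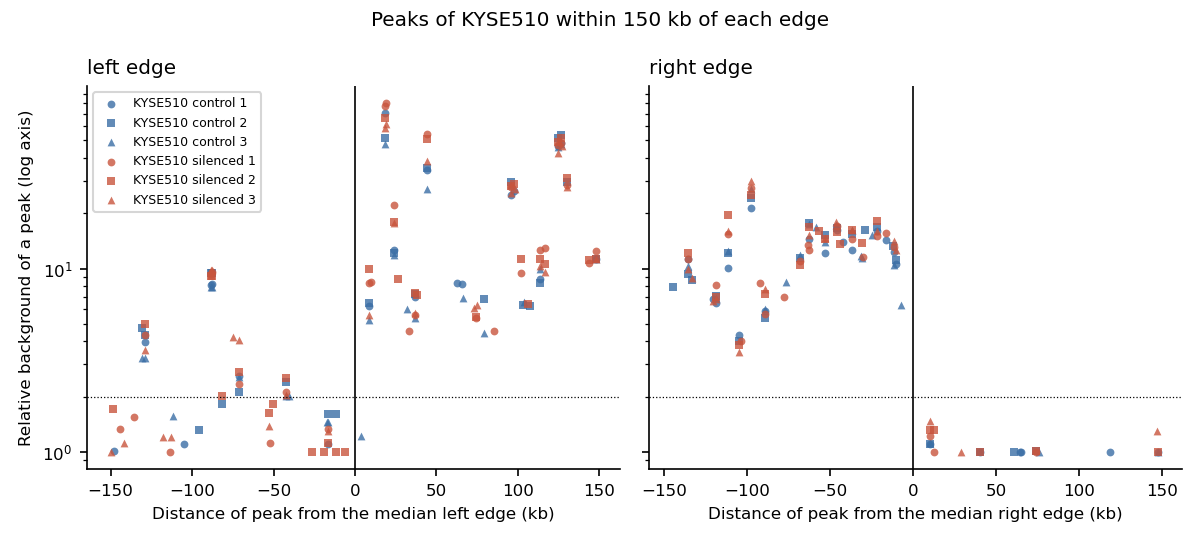
Relative background (log axis) of single KYSE510 peaks against distance in kb from the median left edge and the median right edge of the raised stretch. Blue marks are the 3 control and red marks the 3 silenced libraries. The dotted line is a relative background of 2. Peaks beyond the right edge sit near 1 in all 6 libraries.

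The raised stretch was one of the longest and highest of the KYSE510 genome. Unbroken runs of peaks with a relative background of at least 2 held 171 to 218 peaks there, which ranked 1 to 3 among all such runs of each library. The longest run of the window in a KYSE150 library had 5 to 13 peaks and ranked 37 to 563. In 100 kb tiles with at least 3 peaks in every KYSE510 library, the median relative background was at least 5 in all 6 libraries in 206 of 13275 tiles (1.55%) and at least 10 in 35 (0.264%). All 15 tiles of the stretch passed 5, and 9 passed 10. Its highest tile ranked 1 in the genome, with a level of 46.9. No KYSE150 tile reached 10 in all 6 libraries, although its highest tile had a mean level of 16.6. The highest KYSE150 tile of the window ranked 153, with 3.29. These ranks restate the reason for choosing the window.

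The median relative background over peaks of the stretch was 13.5, 14.2 and 16.2 in the KYSE510 control libraries and 13.7, 16 and 16.2 in the silenced ones. In the rest of the window it was 1.47 to 1.89 and over all peaks of a library 1.57 to 1.78. In KYSE150 the median was 1 in the stretch, in the rest of the window and over all peaks, since most of its peaks sit on the floor. Among KYSE150 peaks of height 3 or more it was 3.04 to 4.60 in the stretch, 2.40 to 3.51 in the rest of the window and 2.76 to 3.39 over all peaks. In each of the 6 KYSE150 libraries the stretch was thus somewhat above the rest of the window and the genome at these heights. The KYSE510 difference was much larger.

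**Figure D2:**
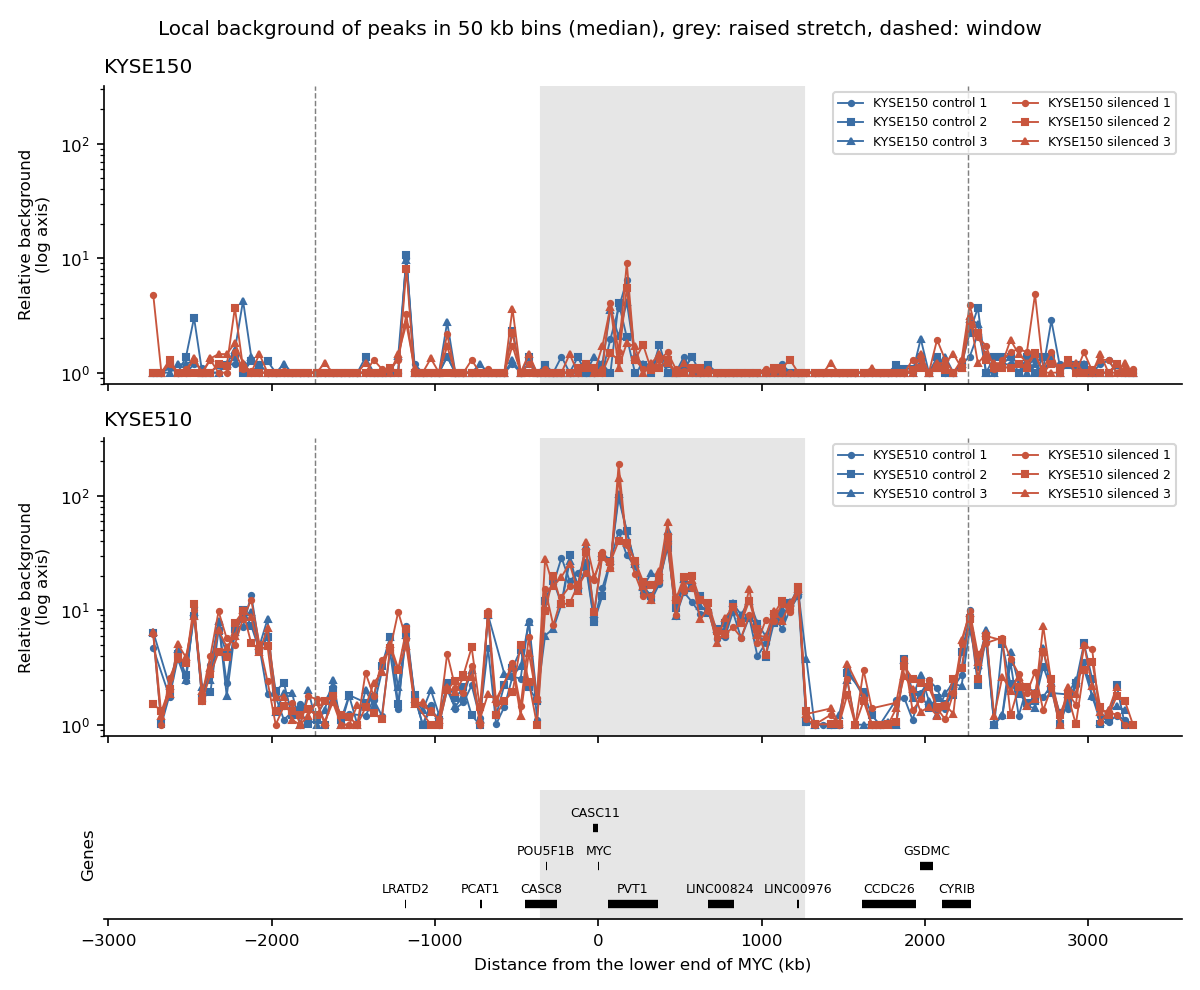
Median relative background (log axis) of the peaks in 50 kb bins against distance in kb from the lower end of MYC, for 6 libraries of KYSE150 (top) and 6 of KYSE510 (middle), with genes below. The grey band is the raised stretch and dashed lines are the bounds of the window. All 6 KYSE510 lines step up over the band, where the stretch medians are 13.5 to 16.2, and the KYSE150 lines stay near the floor over most of it.

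The background was not level within the stretch. Peaks between the left edge and CASC11 had a median relative background of 13.8 to 25.1 over the 6 KYSE510 libraries. Between CASC11, with MYC, and PVT1 it was 15.6 to 29.4. Within PVT1 it was 25.2 to 28.0, and no peak there fell below 9.11. From PVT1 to LINC00824 it was 14.3 to 19.7, within LINC00824 it was 6.35 to 8.18, and from there to the right edge it was 7.64 to 10.1. The level was thus lower in all 6 libraries in LINC00824 and beyond it than in PVT1. Outside, the piece from the right edge to CCDC26 had 1 to 1.48 and only 9 to 13 peaks a library. The pieces before the left edge and from CCDC26 to the end of the window had 1.38 to 2 and 1.48 to 1.94. Peaks lying 250 to 750 kb before the window had 4.65 to 6.35 in KYSE510, so the flank on that side was not at the floor throughout.

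Part of a peak's background goes with its height. Among peaks of height 20 to 39, KYSE510 had a relative background of 13.7 to 17.5 in the stretch and 5.89 to 6.78 elsewhere in the genome. At these heights the fold enrichment was 5.77 to 8.02 in the stretch and 11.6 to 12.1 elsewhere, so a peak of given height was called there with a lower fold. In KYSE150 the same heights had a background of 9.27 to 13.2 in the stretch (2 to 7 peaks a library) and of 9.41 to 11.9 elsewhere. DNA copy number was not measured in these tables, and its part in the raised level was not tested.

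The stretch held 19 of the 50 annotated genes of the window whole, cut 2 and left 29 outside. Inside lay CCAT2, POU5F1B (30.6 kb from the left edge), CASC11, MYC (353 kb from the left edge) and PVT1. So did the microRNA genes MIR1204 to MIR1208, LINC02912, LINC00824 and LINC00976, which ended 29.0 kb before the right edge. CASC21 and CASC8 crossed the left edge. LRATD2, PCAT1, PCAT2, PRNCR1, CASC19 and CCAT1 lay before the stretch. LINC00977, CCDC26, GSDMC, which encodes a pore-forming gasdermin, and CYRIB, which encodes a regulator of the actin cytoskeleton, lay after it. MYC was therefore covered whole with all of PVT1, and CCAT1 was not covered.

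KYSE510 had more peaks in the stretch, and taller ones. It held 110 to 135 peaks per Mb there and 51.1 to 63.2 in the rest of the window. KYSE150 held 192 to 239 and 191 to 235, which overlap. The median height of KYSE510 peaks was 19, 18 and 22 in the control libraries and 21, 21 and 24 in the silenced ones, against 4 to 6 in the rest of the window and 4 to 5 in the genome. The tallest peak reached 811, 611 and 612 in the control and 627, 737 and 616 in the silenced libraries. The median fold enrichment moved far less, with 4.64 to 5.91 in the stretch, 3.91 to 4.62 in the rest of the window and 3.95 to 4.20 in the genome.

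At regions called in all 12 libraries the lines could be set side by side. Over the 37 such regions of the stretch the mean height in KYSE510 was a median of 12.4-fold that in KYSE150 (2.76 to 89.7-fold). Over the 34 in the rest of the window it was 1.81-fold (0.745 to 13.1-fold), and over 28333 in the genome 1.45-fold. The highest ratio of the genome, 89.7-fold, lay in the stretch. The ratio of fold enrichments was 1.72 in the stretch, 1.26 in the rest of the window and 1.15 in the genome. Every one of the 37 regions of the stretch was taller in KYSE510. These values share the libraries that set the window and stand as a description.

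**Figure D3:**
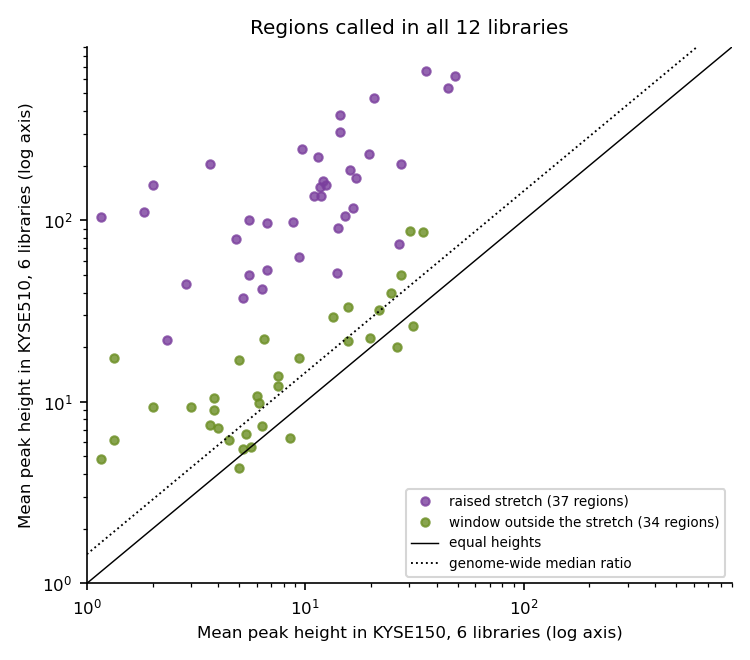
Mean peak height over 6 libraries in KYSE150 (x axis, log) and in KYSE510 (y axis, log) at the regions of the window called in all 12 libraries. The 37 regions of the stretch (purple) lie above the solid line of equal heights and above the dotted genome-wide median ratio of 1.45. The 34 regions outside it (green) lie on both sides of the dotted line, more of them above it, with a median ratio of 1.81.

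Sharing between the lines was lopsided in the stretch. Of its 117 regions called in all 6 KYSE510 libraries, 37 (31.6%) were also in all 6 KYSE150 libraries, against 54.8% in the rest of the window and 58.5% in the genome. Taken the other way, 37 of the 42 regions in all 6 KYSE150 libraries (88.1%) were in all 6 KYSE510 libraries, against 66.7% and 62.0%. No peak of any KYSE150 library touched 14 of the 117 (12%), against 3.96% in the genome. More regions passed the peak threshold in every KYSE510 library there, and few steady KYSE150 regions were missing from KYSE510.

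At MYC both ends of the gene were open in every library. The region over its lower end, the promoter side, was 8:127735068-127736617 in KYSE510, with heights of 177, 108 and 122 in the control libraries and 131, 124 and 149 in the silenced ones. The groups overlapped, and the fold enrichment was 6.24 to 7.45. Merged within KYSE150, the region spanned 8:127735766-127736399 and had heights of 12, 14 and 9 in control and 10, 12 and 11 in silenced libraries. In limma on the ranks of fold enrichment, expressed as normal scores, the change with silencing was -0.08 ± 0.32 (SE, adjusted p = 0.980) in KYSE510 and 0.04 ± 0.34 (adjusted p = 0.997) in KYSE150. Neither line showed a change at the MYC promoter beyond the spread of its libraries.

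The region at the upper end of MYC, 8:127742988-127743564, had heights of 83, 56 and 82 in the KYSE510 control libraries and 109, 113 and 104 in the silenced ones. All 3 silenced heights lay above all 3 control heights, but the fold enrichments overlapped (8.91 to 12.2 and 11.6 to 13.5). The change in rank score was 0.44 ± 0.33 (adjusted p = 0.822). In KYSE150 this end had heights of 8, 18 and 15 in control and 17, 12 and 15 in silenced libraries, which overlap. Among KYSE510 regions called in all 6 libraries, silenced heights lay above all control heights at 28 of 117 in the stretch (23.9%), against 5.35% in the genome. They lay below at 8 (6.84%), against 3.66%. In KYSE150, silenced heights lay above at 1 of 42 in the stretch (2.38%), against 1.17% in the genome. They lay below at 1 (2.38%), against 7.72%. CASC11, a long non-coding RNA gene just before MYC, ended in a region with KYSE510 heights of 115, 68 and 79 in control and 90, 71 and 73 in silenced libraries (adjusted p = 0.853).

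Near POU5F1B there was no strong peak on the gene itself. Within 1 kb of its ends KYSE510 had no peak, and KYSE150 had only peaks of height 1, each in a single library. Farther inside the gene, KYSE510 control 3 and silenced 1 each had a peak of height 5, with a relative background of 6.01 and 4.56. Reads from POU5F1B can be shared with POU5F1 and its other copies, and how such reads were handled is not given in the sources used here. The strongest region within 10 kb was 8:127426605-127427362, inside CASC8. Its heights in KYSE510 were 209, 176 and 130 in control and 243, 248 and 217 in silenced libraries, and in KYSE150 they were 1, 5 and 4 and 6, 4 and 2. The KYSE510 groups did not overlap in height, but their fold enrichments did, and the rank score changed by 0.07 (adjusted p = 0.980). CCAT2, a non-coding RNA gene inside CASC8, lay under a region at 8:127400700-127402204 with KYSE510 heights of 323, 189 and 182 in control and 280, 269 and 242 in silenced libraries. KYSE150 had 7, 11 and 12 and 11, 8 and 9 there.

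Across PVT1 the start and the body differed. The region over its lower end, 8:127794210-127795496, was lower than those over the ends of MYC in both lines. KYSE510 had heights of 33, 35 and 30 in control and 27, 27 and 23 in silenced libraries, so the silenced heights lay under the control ones. KYSE150 had 3, no call and 3 in control and no call, 1 and 2 in silenced libraries. The KYSE510 change in rank score was -0.38 ± 0.34 (adjusted p = 0.850), and the fold enrichments overlapped. The strongest region of the gene body, 8:127831419-127832123, had 326, 296 and 268 in control and 317, 298 and 340 in silenced KYSE510 libraries. In KYSE150 it had 13, 17 and 8 and 14, 18 and 17. Over PVT1 as a whole 23 regions were called in all 6 KYSE510 libraries and 16 in all 6 KYSE150 libraries. At unadjusted p under 0.05, 0 of 23 were higher and 1 was lower with silencing in KYSE510 (genome 3.95% and 3.35%). In KYSE150, 1 of 16 was higher and 0 lower (genome 2.65% and 2.74%).

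**Figure D4:**
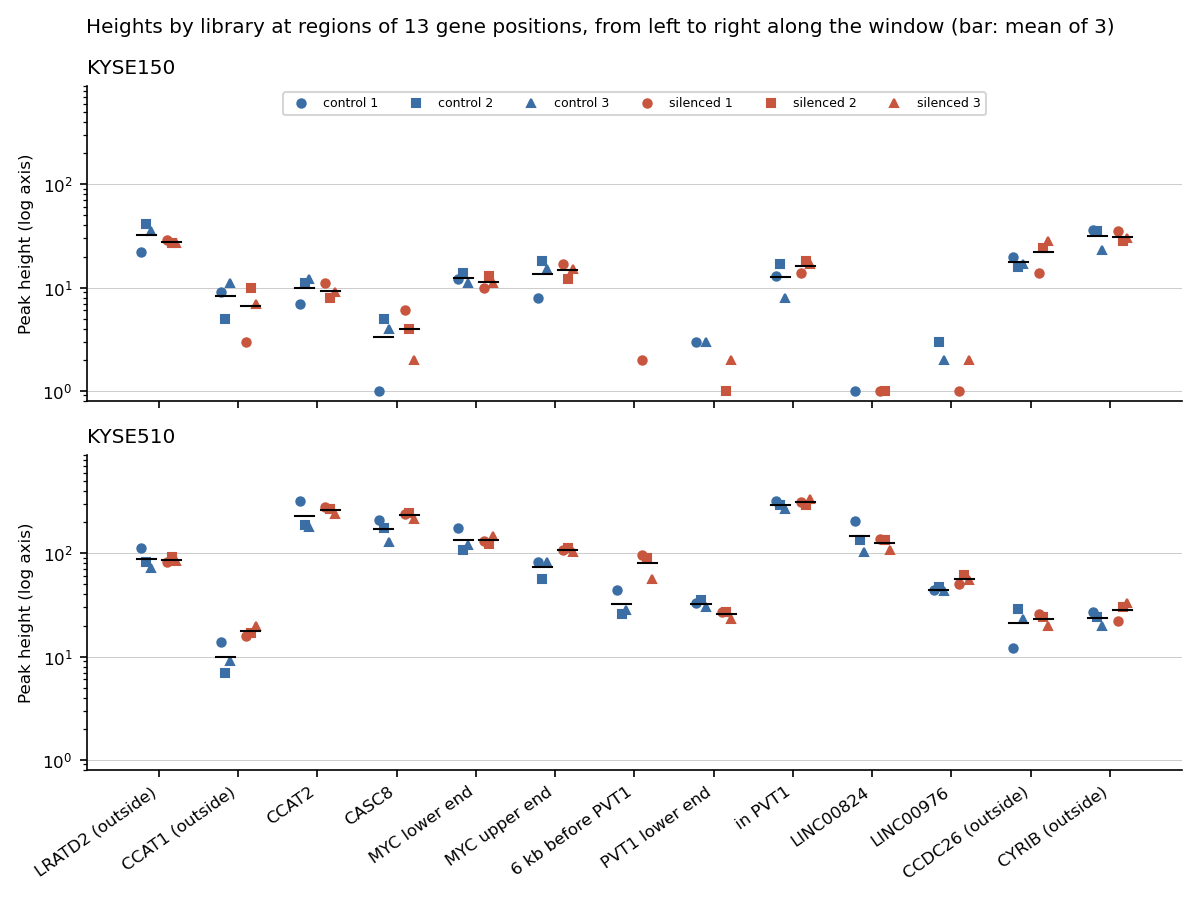
Peak heights (log axis) by library at the regions of 13 gene positions, merged over all 12 libraries and ordered along the window, in KYSE150 (top) and KYSE510 (bottom). Blue marks are control and red marks silenced libraries, a missing mark is a library without a peak, and bars are means of 3 where all 3 had a call. At the lower end of MYC the KYSE510 heights are 108 to 177 and the KYSE150 heights 10 to 14.

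Genes of the flanks gave a contrast in scale. LRATD2, outside the stretch, had a region over one end with heights of 57, 49 and 38 in control and 59, 45 and 50 in silenced KYSE510 libraries. In KYSE150 that end had 27, 26 and 39 and 23, 19 and 30. At GSDMC the heights were 6, 9 and 5 and 7, 5 and 5 in KYSE510 and 6, 4 and 4 and 5, 6 and 2 in KYSE150. Within CCDC26 the strongest region had 12, 29 and 23 and 26, 24 and 20 in KYSE510 and 20, 16 and 17 and 14, 24 and 28 in KYSE150. The lines thus overlapped in height at that end of LRATD2 and at these regions of GSDMC and CCDC26. They did not overlap at the strongest region near LRATD2, 4.52 kb from the gene. Heights there were 72 to 112 in KYSE510 and 22 to 41 in KYSE150. In LINC00824, inside the stretch, KYSE510 had 208, 135 and 103 in control and 137, 136 and 108 in silenced libraries at 8:128427869-128429202. KYSE150 had a height of 1 there in 3 of 6 libraries and no call in the others.

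The microRNA genes MIR1204 to MIR1208 were read through the strongest region within 10 kb of each. Beside MIR1205, at 8:127969370-127970510, KYSE510 had heights of 50, 45 and 55 in control and 67, 89 and 70 in silenced libraries. These do not overlap, as at 23.9% of the stretch regions (limma change 0.55, unadjusted p = 0.128). KYSE150 had 11, 13 and 9 and 9, 9 and 5 there. Beside MIR1208, at 8:128152723-128153489, KYSE510 had 149, 130 and 107 and 116, 127 and 113, which overlap, and KYSE150 had a height of 1 in 2 libraries. The regions beside MIR1206 and MIR1207 were weaker, with KYSE510 heights of 17 to 25 and 9 to 11 in the 5 libraries that had a call at each.

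LINC00976, the last gene before the right edge, had its strongest region at 8:128957799-128958439. KYSE510 heights there were 44, 47 and 43 in control and 51, 62 and 55 in silenced libraries, without overlap (limma adjusted p = 0.818). KYSE150 heights were 1 to 3 in 4 libraries. LINC02912, which lies within PVT1, was next to a region at 8:127949234-127950119 with KYSE510 heights of 130, 141 and 110 and 101, 171 and 141. KYSE150 had 4, 3 and 3 there in control libraries and no call in silenced ones. Before the left edge, the strongest region near CCAT1 lay 3.17 kb outside the gene, at 8:127222433-127223438. Its KYSE510 heights were 14, 7 and 9 and 16, 17 and 20, which do not overlap (limma change 0.90, unadjusted p = 0.0284). KYSE150 heights there were 9, 5 and 11 and 3, 10 and 7. The 1 region tested within CCAT1 in KYSE510 went the other way (limma change -0.90, unadjusted p = 0.0293, adjusted p = 0.635). The number of peaks within 10 kb of each of 25 genes was compared in both lines. Of the 50 comparisons, 5 reached 0.1, the smallest p that the exact permutation test can give. This is no more than the share expected without any change, and some of the neighbourhoods overlap. Of the 5, 4 had more peaks in silenced libraries, and the smallest adjusted p was 0.833. In KYSE150 CASC8 had 41 to 44 peaks in control and 37 in every silenced library. In KYSE510 CCDC26 had 8 to 9 in control and 10 to 12 in silenced libraries.

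The regions of highest fold enrichment differed in place between the lines. All 10 of the highest-ranked regions of the window in KYSE510 lay in the stretch, and 5 of 10 did in KYSE150. The first rank in both lines went to the same place, 104 kb before CASC11. KYSE510 had heights of 553, 520 and 489 in control and 538, 562 and 545 in silenced libraries at 8:127596022-127596763. KYSE150 had 45, 50 and 46 and 50, 46 and 32 there. The groups overlapped in KYSE150 and in KYSE510, and the adjusted p was 0.981 and 0.999. Other leading KYSE510 regions lay in the gap after LINC00824, as at 8:128665808-128666940 with 222, 224 and 226 in control and 198, 240 and 227 in silenced libraries. The third rank of KYSE150 fell inside PVT1, at 8:127859687-127860361, with 33, 29 and 46 in control and 44, 31 and 32 in silenced libraries.

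The totals of the window differed between treatments by less than the spread of the libraries. In KYSE150 the control libraries averaged 857 ± 37.1 peaks and the silenced ones 847 ± 86.6 (SD, n = 3 each, two-sided exact permutation p = 0.8). The KYSE510 averages were 333 ± 18.0 and 345 ± 21.2 (exact permutation p = 0.5). As a share of all peaks of a library the window held 0.148% and 0.147% in KYSE150 (exact permutation p = 0.8). The KYSE510 shares were 0.268% and 0.269% (exact permutation p = 1). The relative background of the stretch in KYSE510 was 14.6 ± 1.36 in control and 15.3 ± 1.37 in silenced libraries (SD, n = 3 each, exact permutation p = 0.6). With 3 libraries against 3 this test cannot go below 0.1, and all 6 adjusted p were 1. The difference between the lines in these effects, tested over 400 relabellings within the lines, gave permutation p of 0.53, 0.745 and 0.6 (all 3 adjusted to 0.745). The last of these, on the relative background, rests on KYSE510, since the KYSE150 median lay at the floor in both groups. For the same reason the KYSE150 test of that background, counted among the 6, could show no change.

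No single region of the window passed the adjusted threshold in KYSE510. The limma test covered 179 regions of the window called in all 6 KYSE510 libraries, 117 of them in the stretch. The window had 0 calls at an adjusted p under 0.05, as did the whole line (0% of 48299 regions), and the smallest adjusted p of the window was 0.490. At unadjusted p under 0.05, 14 of the 117 (12%) were higher, against 3.95% of the genome, and 3 (2.56%) were lower, against 3.35%. The change was positive in 78 of 117 (66.7%), against 48.5% of the genome, and its median was 0.14 against -0.02. All 3 silenced ranks lay above all 3 control ranks in 25 of 117 (21.4%), against 6.18% of the genome, and below them in 8 (6.84%), against 6.32%. These regions share 1 raised stretch and so are not independent. Without control 1 or without silenced 2 the 14 fell to 6, and leaving out any 1 library gave 6 to 10.

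**Figure D5:**
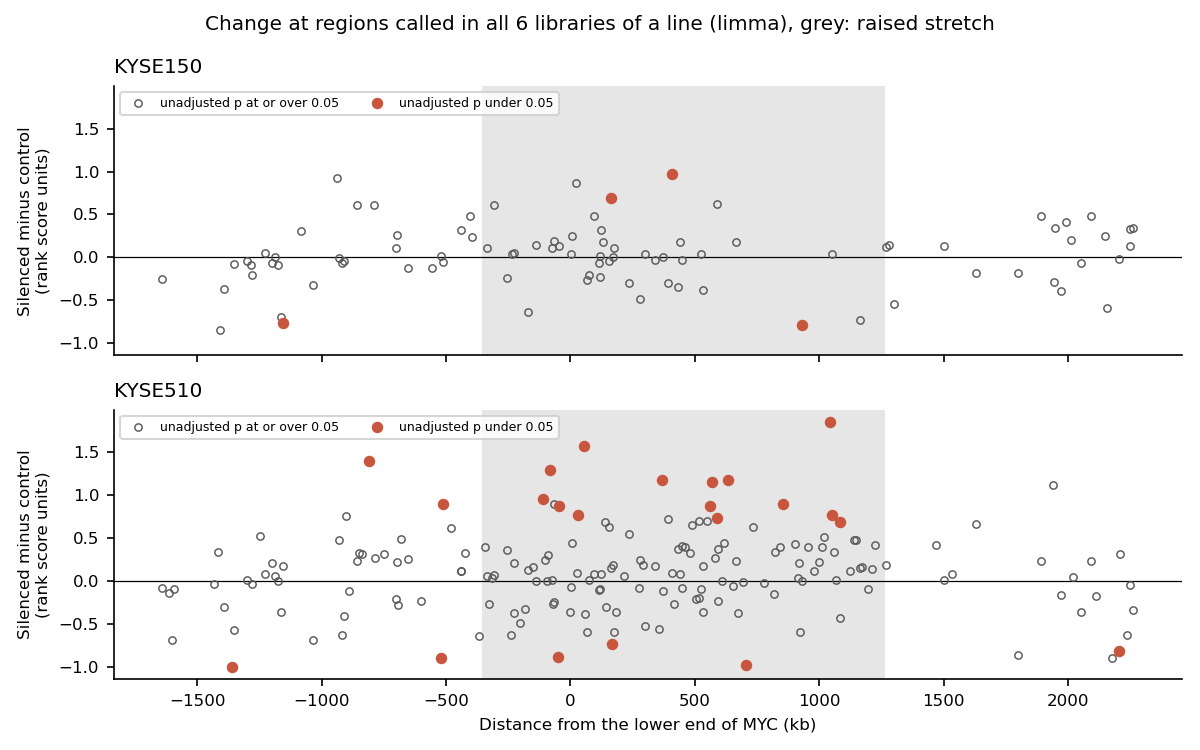
Change with silencing in rank score units (limma coefficient, silenced minus control) at regions called in all 6 libraries of a line, against distance in kb from the lower end of MYC. Filled red points have an unadjusted p under 0.05 and the grey band is the raised stretch. In KYSE510, 14 filled points of the band lie above 0 and 3 below, and no point passed the adjusted threshold.

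By position the 14 lay before CASC11 (3 of 25 regions), between CASC11 and PVT1 (2 of 6), between PVT1 and LINC00824 (5 of 30) and between LINC00824 and the right edge (4 of 26). PVT1 had 0 of 23 and LINC00824 0 of 7. The region with the smallest p, 8:128776790-128777395, had heights of 9, 6 and 10 in control and 22, 17 and 32 in silenced libraries. Its change was 1.85 ± 0.43 in rank score (adjusted p = 0.490). The next, 8:127787681-127788475, lay 6.05 kb before PVT1 and had 44, 26 and 28 in control and 96, 91 and 56 in silenced libraries. Its change was 1.57 ± 0.40 (adjusted p = 0.490), and in KYSE150 only silenced 1 had a peak there, of height 2. The third, 8:127653549-127654216, had 12, 14 and 7 and 23, 29 and 24. The heights of the groups do not overlap at these 3 regions, which were picked for their small p. The change had the opposite sign at a taller region. At 8:128034918-128035611 in PVT1 the heights were 429, 418 and 394 in control and 317, 353 and 377 in silenced libraries, with a change of -0.52 ± 0.33 (adjusted p = 0.773).

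In KYSE150 the limma test covered 92 regions of the window, of which 42 lay in the stretch. There were 0 calls at an adjusted p under 0.05 in the window and in the line (0% of 45053), and the smallest adjusted p of the window was 0.925. At unadjusted p under 0.05, 2 were higher (2.17%) and 2 lower (2.17%), against 2.65% and 2.74% of the genome. In the stretch 2 of the 42 were higher (4.76%) and 1 was lower (2.38%). The change was positive in 26 of the 42 (61.9%), against 50.4% of the genome, and its median was 0.0395 against 0.00323. All 3 silenced ranks lay above the control ranks in 4 of 92 (genome 6.4%) and below them in 4 (genome 4.97%). The smallest p belonged to 8:128141981-128142680, 7.44 kb before MIR1208, with heights of 2, 1 and 2 in control and 5, 4 and 3 in silenced libraries. The second was 8:126579774-126580430 near LRATD2, with 34, 32 and 28 and 22, 22 and 11. The third was 8:127898782-127899947 in PVT1, with 11, 9 and 9 and 19, 14 and 10. The adjusted p of these 3 regions was 0.925. The difference between the lines was tested at 71 regions of the window called in all 12 libraries. None passed an adjusted p under 0.05 (genome 0.00353%), and 1 was higher (genome 2.85%) and 0 lower (genome 2.64%) in KYSE510 at unadjusted p under 0.05, with a smallest adjusted p of 0.902.

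Some regions were one-sided, with a peak in 3 of 3 libraries of a treatment and 0 of 3 without it. KYSE510 had 6 of 698 regions on the silenced side (genome 0.546%) and 1 on the control side (genome 0.304%), and 5 of the 6 lay in the stretch. The tallest was 8:128032773-128033252 in PVT1, with heights of 62, 121 and 66 in the silenced libraries. The nearest control peaks lay 1666 to 1700 bp away, in the region of PVT1 with control heights of 394 to 429. A second in PVT1, 8:127991475-127992037, had 29, 26 and 24. Between CASC8 and CASC11, 8:127499391-127499792 had 27, 26 and 19 and 8:127547948-127548609 had 12, 11 and 12. The fifth, 8:127457077-127457649 in CASC8, had 6, 7 and 7. The only region on the control side, 8:127727277-127727739 in CASC11, had 10, 5 and 5. In 1 silenced library a peak of height 9 lay 415 bp from it.

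KYSE150 had 12 of 3278 regions on the control side (genome 0.294%) and 12 on the silenced side (genome 0.248%). Of these, 9 and 11 never rose above a height of 2. The tallest on the control side, 8:127949354-127950046 in PVT1, had 4, 3 and 3. The tallest on the silenced side, 8:129698039-129698553, lay 6.88 kb from GSDMC and had 1, 3 and 2. Heights of 1 to 4 are close to the lowest that the tables hold, so at this depth an absent peak there cannot be told apart from a weak one.

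Beyond the segment, a list of 13 genes that encode partners, relatives and antagonists of MYC, such as MAX, MNT and MXD1, was read in the same fits. In each line 9 of the 13 genes had a region called in all 6 libraries, 10 regions in KYSE150 and 11 in KYSE510. At unadjusted p under 0.05, 0 were higher and 0 lower in either line. The genome shares were 2.65% and 2.74% in KYSE150 and 3.95% and 3.35% in KYSE510. The smallest adjusted p of the list was 0.940 in KYSE150 and 0.836 in KYSE510.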

How the data were processed

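ATAC-seq was run on 12 libraries, 3 in each of 4 groups, and the authors deposited 1 peak table per library, not pooled. Per the submitters' processing notes, Trimmomatic 0.36, Bowtie2 2.2.6, Picard 2.8.2, MACS2 2.1.1 and bedtools 2.25.0 and the build GRCh38 were used; their roles and settings are not given in the sources used here. Per the file headers, the fold enrichment is a ratio of height to local background, and each peak has a p-value and FDR on the linear scale (largest p-value 0.00987). The deposited pileup is the height, a whole-number signal, and the deposited length is in bp. The tables used here hold no read totals; sequencing depth is therefore unknown, and numbers of peaks are given instead.

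Peaks on 24 chromosomes were used. The local background was solved from height and fold enrichment, and its lowest common value per library served as reference. Edges were the interval of at least 10 consecutive KYSE510 peaks, in the window extended by 6 Mb on both sides, with the largest least-squares gain in log2 relative background. Groups were compared within a line by two-sided exact permutation tests over 10 splits. Regions called in all 6 libraries of a line were tested with limma 3.58.1 (R 4.3.3) on normal scores of within-library ranks of fold enrichment, with Benjamini-Hochberg adjustment over the whole genome. The scripts were tested on simulated data. Of 200 planted shifts of 1 rank score unit, limma recovered 0% at an adjusted p under 0.05 in both lines. Of shifts of 2 units it recovered 77% in KYSE510 and 94.5% in KYSE150. A count of 0 adjusted calls therefore cannot exclude changes of 1 unit or less, and it can miss changes of 2 units in both lines. Sizes between 1 and 2 units were not simulated. Other steps used Python 3.11.15, numpy 2.4.6, pandas 2.3.3, scipy 1.17.1 and matplotlib 3.10.9.

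Named regions are the strongest within 10 kb of, and those within 1 kb of the ends of, listed genes, the 10 of highest mean percentile per line, the 5 tallest one-sided regions per line and side, the 3 of smallest p per line and the peaks at each edge. The regions at gene ends were added after the values were seen. Gene positions come from a RefSeq table for GRCh38.p14. The members and lists were chosen with earlier results of these data known. Alternatives were other peak thresholds, merging overlaps, background references and measures, left-out libraries and a replicate block.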

Additional observations from a re-analysis of the deposited data

How the results depend on the processing

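The counts of adjusted calls stayed at 0 in both lines and for the difference between lines under all 14, 14 and 15 alternatives, leaving out each library included. The difference in window peak number ran from -60.3 to 14.7 in KYSE150 and from 0.5 to 21 in KYSE510 with 1 library left out. The difference in window share ran from -0.00287 to 0.000673 percentage points and from -0.00474 to 0.0115. With peaks of FDR up to 0.05 that share turned in KYSE510 to -0.00072, and with heights of 3 or more to -0.000115. The difference in relative background of the stretch ran from 0 to 2.06e-05 in KYSE150 and from 0.132 to 1.47 in KYSE510, which turned to -0.198 with FDR up to 1e-05. The cause of these reversals was not tested. With 100 kb bins the mean left edge was 127.267 Mb and the right 129 Mb. The left one fell at 127400000 in control 2 and silenced 2. In the other KYSE510 libraries it fell at 127200000, beyond the raised peaks about 88 kb before the edge. The right edge was 128.991 Mb with FDR up to 0.05, and 128.948 Mb by the longest run of peaks at a relative background of at least 2, an alternative chosen after seeing the data, since the run of control 1 ended at 128717590. One-sided regions of KYSE150 fell from 24 to 3 with FDR up to 0.05, 1 with FDR up to 1e-05 and 4 with heights of 3 or more, and came to 62 to 85 with 1 library left out, which eases the rule. In KYSE510 the 7 became 11 to 16. Control and silenced libraries were also correlated over regions after removal of group means, which does not measure the likeness of whole profiles. Same-numbered libraries correlated by 0.009 to 0.0491 in KYSE150 and 0.0301 to 0.0890 in KYSE510, and libraries of different number by -0.0460 to -0.00195 and -0.0613 to 0.0169. No pair passed 0.1, and the labels state no pairing. Each library correlated best with its own number, a hint from the data and not from the design. The replicate block left the difference in window peak number at -10.3 and 12.3 and the adjusted calls at 0, and 12 of the 117 stretch regions were higher at unadjusted p under 0.05. That count, 14 in the report, was 9 when height over background without the added 1 was ranked and 11 when height was ranked, both also chosen after seeing the data. Unknown depth and the many KYSE150 peaks of height 1 limit comparisons of single regions between the lines.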
